A study of Mus musculus with 2 samples.

Results

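The 9 genes described here form an IL-17 programme of gamma delta T cells. Cd163l1, Tcrg-C1, Il23r and Cxcr6 act at the cell surface, Il17a and Il17f are cytokines, Blk is a kinase, and Sox13 and Maf are transcription factors. They were taken by symbol from the 32285 genes counted in single cells of mouse uterus, and all 9 were present in both libraries. The members were chosen by their measured levels in these same libraries, in T cells with and without Trdc and in NK cells, so those contrasts are given below as a description, without a test. Trdc is the constant segment of the delta chain of the T cell receptor.

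Whole uteri were taken at 6 months of age from female mice that all carried Prickle1 f/f, the floxed alleles of a planar cell polarity gene. The control library came from Prickle1 f/f mice without Cre, as its title gives them. The conditional knockout (cKO) library came from Prickle1 f/f Ltf-cre mice, named Ltf-iCre in the design text, in which the lactoferrin gene drives Cre. In adult mice this driver is known for its activity in the uterine epithelium, not in lymphocytes. A genotype label reads C57BL/6J wild-type for both samples, so the groups rest on the titles. Each library pooled 3 mice, giving 1 library per group. All intervals below are exact 95% intervals that cover counting error only, and a difference between genotypes cannot be told apart from a difference between the 2 pools or library preparations. The stage of the oestrous cycle is not given in the sources used here.

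Gamma delta T cells recognise antigen through a receptor of a gamma and a delta chain, and many of those lodged in barrier tissues leave the thymus already committed to secreting IL-17. Such cells depend on the transcription factors Sox13 and Maf and on the kinase Blk during development, and in tissue they respond to IL-23 and IL-1 from myeloid cells. In the uterus, gamma delta T cells that carry the Vγ6 chain are a known resident population. IL-17A and IL-17F act on stromal and epithelial cells through a receptor of IL-17RA and IL-17RC.

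The control library held 45035801 UMIs (unique molecular identifiers, 1 for each captured RNA molecule) and the cKO library 57145553. After a minimum of 500 genes, a limit of 20% mitochondrial UMIs and removal of doublets, 3611 control and 4887 cKO cells were kept, with medians of 4648 and 5881 UMIs. The 2 libraries shared 5 cell barcodes. Epithelial-like cells were 36.2% of control cells and 1.27% of cKO cells, so any share of all cells moves with the recovery of the epithelium. Prickle1 was read at 0.875 CPM (16 UMIs, up to 1.42) in control and 0.729 CPM (2 UMIs, up to 2.63) in cKO epithelial-like cells. CPM is the number of a gene's UMIs per 1000000 UMIs summed over the cells of a class. The intervals overlapped, and because the 3′ tags need not lie in the deleted part of Prickle1, these counts do not check the labels. In the Trdc-positive T cells, Prickle1 was read at 10.2 CPM (5 UMIs) in control and 30.3 CPM (81 UMIs) in cKO, with intervals that did not overlap (3.33 to 23.9 and 24.1 to 37.7). It was also higher in cKO in stromal fibroblast-like cells, at 4.55 CPM (3.29 to 6.13) and 8.32 CPM (7.22 to 9.53), and over all cells, at 2.69 and 8.35 CPM.

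Cells with a Cd3e or Cd3g UMI were called T cells and were divided by the presence of a Trdc UMI. Cells with Ncr1 or Eomes and without Cd3e formed the natural killer (NK) gate, and the 4 control and 10 cKO cells that met both definitions were left out. The Trdc-positive T gate held 83 control cells (2.30% of all cells, 1.83% to 2.84%) and 353 cKO cells (7.22%, 6.51% to 7.99%). The Trdc-negative T gate held 93 and 140 cells, and the NK gate 118 and 652. Trdc-positive cells were 47.2% (39.6% to 54.8%) of the 176 control T cells and 71.6% (67.4% to 75.5%) of the 493 cKO T cells. The share among T cells was thus also higher in the cKO library. Of the Trdc-negative cells, 17 of 93 in control and 27 of 140 in cKO lay outside lymphoid-like clusters. Epithelial markers in that gate (7 and 6 of 7 detected) summed to 1087 and 248 CPM, and their part in the shares was not tested. Median depth in the Trdc-positive, Trdc-negative and NK gates was 4203, 4313 and 6343 UMIs per cell in control and 4607, 4400.5 and 5565 in cKO.

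The Trdc label was checked against genes of alpha beta T cells. In the Trdc-positive gate, the alpha chain constant segment Trac was at 28.7 CPM in control and 16.9 CPM in cKO, against 219 and 236 CPM in the Trdc-negative gate. The co-receptor genes Cd4 and Cd8a had 0 UMIs in control and 3 and 6 UMIs in cKO Trdc-positive cells. The beta chain constant segments did not separate the gates. Trbc1 was at 285 and 303 CPM in the Trdc-positive gate against 280 and 160 CPM in the Trdc-negative gate, and Trbc2 at 352 and 269 against 353 and 266 CPM. Of the Trdc-positive cells, 77 of 83 in control and 309 of 353 in cKO fell in 1 cluster, whose leading genes were Tcrg-C1, Cd163l1, Trdc, Blk, Pdcd1, Cd3g, Cxcr6, Olfr60, Aqp3 and Cd3e. Members and Trdc itself lead this cluster, so it is no independent check of the gate. That cluster also held 10 control and 11 cKO cells of the Trdc-negative gate and no cell of the NK gate. A further 5 control and 34 cKO Trdc-positive cells lay outside the lymphoid-like clusters, 3 and 22 of them among stromal fibroblast-like cells.

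The upstream sequences of 3 members are printed, those of both cytokines of the programme and of the receptor gene Il23r. The 3 core motifs were searched in all 6 member windows, and only these 3 held a match. RefSeq promoter windows of mouse build GRCm38.p6 matched 6 of the 9 members: Cd163l1, Il23r, Il17a, Il17f, Sox13 and Cxcr6. The 250 bases before the start site are given 5′ to 3′ on the gene's strand, with motif matches in capitals. Il17a is from chr1:20730655-20730904 (plus strand), Il17f from chr1:20784271-20784520 (minus strand) and Il23r from chr6:67491856-67492105 (minus strand). Start sites are those of RefSeq, and that of Il17f lies inside the longer gene of the GENCODE annotation used for positions below.
Il17a: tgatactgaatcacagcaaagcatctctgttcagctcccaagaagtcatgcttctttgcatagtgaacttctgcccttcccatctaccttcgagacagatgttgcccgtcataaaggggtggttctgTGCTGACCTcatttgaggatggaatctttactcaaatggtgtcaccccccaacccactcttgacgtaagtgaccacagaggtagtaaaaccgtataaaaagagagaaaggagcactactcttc
Il17f: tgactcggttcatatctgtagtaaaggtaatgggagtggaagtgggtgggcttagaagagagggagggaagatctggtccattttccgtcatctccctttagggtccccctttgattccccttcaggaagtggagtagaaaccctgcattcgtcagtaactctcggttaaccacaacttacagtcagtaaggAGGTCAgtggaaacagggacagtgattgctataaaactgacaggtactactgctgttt
Il23r: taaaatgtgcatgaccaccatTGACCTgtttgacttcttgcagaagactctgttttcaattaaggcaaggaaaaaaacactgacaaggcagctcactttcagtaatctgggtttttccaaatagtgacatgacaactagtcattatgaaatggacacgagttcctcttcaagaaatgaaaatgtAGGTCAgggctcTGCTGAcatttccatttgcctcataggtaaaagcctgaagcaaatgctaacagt
The motifs were AGGTCA, a core bound by many nuclear receptors, TGCTGA, a core of Maf recognition elements, and AACAAT, a core bound by SOX factors, each on either strand. In the Il17a window, TGCTGA begins at position -123 from the RefSeq start site and overlaps a reverse-strand AGGTCA that begins at -120, so the capitals there run together. The Il17f window holds AGGTCA at -58. The Il23r window holds a reverse-strand AGGTCA at -229, AGGTCA at -66 and TGCTGA at -54. Among 32851 windows of the same length, 14.0% held AGGTCA, 16.1% TGCTGA and 9.42% AACAAT, and among the 6 member windows the counts were 3, 2 and 0. The windows of Cd163l1, Sox13 and Cxcr6 held none of the motifs. A match is a string of letters, not a measured binding site.

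Cd163l1 (ENSMUSG00000025461, chr7:140218267-140231145, plus strand, GRCm38) encodes the scavenger receptor SCART1, a surface protein of gamma delta T cells. It was read at 590 CPM (524 to 662, 288 UMIs) in control and 418 CPM (394 to 444, 1117 UMIs) in cKO Trdc-positive T cells. In the Trdc-negative gate it had 0 UMIs in control, which allows up to 4.73 CPM, and 2 UMIs in 1 cell in cKO. The NK gate had 0 UMIs in both libraries, which allows up to 2.28 CPM in control and 0.592 CPM in cKO. Cd163l1 had the highest share of its UMIs in the gate of all 9 members: 98.3% of its UMIs in control (96.1% to 99.4%) and 96.4% in cKO (95.1% to 97.4%) came from Trdc-positive T cells, a higher share in each library than that of Trdc itself, 88.0% and 85.5%. Most of the other Cd163l1 UMIs, 4 in control and 28 in cKO, lay in lymphoid-like cells outside the gates.

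Tcrg-C1 (ENSMUSG00000076749, chr13:19214103-19217024, plus strand) is a constant segment of the T cell receptor gamma chain. It stood at 422 CPM (366 to 484) in control and 416 CPM (392 to 441) in cKO Trdc-positive T cells, at 12.6 and 19.3 CPM in the Trdc-negative gate, and at 0 and 3 UMIs in the NK gate. The levels of the 2 libraries did not differ beyond counting error. Its annotated exons share 35.8% of their 894 words of 31 bases with Tcrg-C2 and 33.0% with Tcrg-C3, so its value is uncertain to the extent that reads were divided among these copies.

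Il23r (ENSMUSG00000049093, chr6:67422932-67491855, minus strand) encodes the receptor subunit specific for IL-23. It was read at 100.4 CPM (74.3 to 133, 49 UMIs in 32 cells) in control and 39.0 CPM (31.8 to 47.2, 104 UMIs in 82 cells) in cKO Trdc-positive T cells. The Trdc-negative gate held 8 and 2 UMIs, and the NK gate 0 in both libraries. Il23r was the only member at least 2-fold lower in cKO than in control Trdc-positive cells, and the intervals of the 2 libraries did not overlap.

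Cxcr6 (ENSMUSG00000048521, chr9:123806475-123811760, plus strand) encodes the receptor for CXCL16, a chemokine that holds lymphocytes in tissue. Trdc-positive T cells had 1041 CPM (952 to 1135) in control and 1195 CPM (1154 to 1237) in cKO. Unlike Cd163l1, Cxcr6 was shared with other lymphocytes: it reached 321 and 223 CPM in the Trdc-negative gate, 492 and 1028 CPM in group 2 innate lymphoid-like cells (19 and 44 cells), and 229 and 190 CPM in lymphoid-like cells outside the gates. The NK gate was low, with 3.04 CPM (4 UMIs) in control and 14.8 CPM (75 UMIs) in cKO. Trdc-positive T cells gave 56.4% of all Cxcr6 UMIs in control and 77.4% in cKO.

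Il17a (ENSMUSG00000025929, chr1:20730905-20734496, plus strand) encodes IL-17A, the cytokine that gives the programme its name. In control Trdc-positive T cells, 4 UMIs were counted in 3 of 83 cells, or 8.19 CPM (2.23 to 21.0). In cKO Trdc-positive T cells, 112 UMIs were counted in 35 of 353 cells, or 42.0 CPM (34.5 to 50.5). The level was higher in cKO and the intervals did not overlap, but the control value rests on 4 molecules. Those intervals take UMIs as independent, so they do not cover the uneven spread among cells. Within the cKO gate the transcript was unevenly spread: 17 of the 35 cells had 1 UMI, 6 had at least 5, and 1 cell with 21 UMIs gave 18.8% of the total. The Trdc-negative gate held 0 and 2 UMIs and the NK gate 0 and 0. Outside the gates, Il17a appeared in 1 control lymphoid-like cell (3 UMIs), in 5 cKO lymphoid-like cells (28 UMIs, 21 of them in 1 cell) and in 1 cKO dendritic-like cell (10 UMIs). Of these cells outside the gates, the control cell, 4 of the 5 cKO lymphoid-like cells and the dendritic-like cell also had Trdc or Cd163l1, as did the 1 stromal fibroblast-like cell with a single Il17a UMI.

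Il17f (ENSMUSG00000041872, chr1:20777146-20790617, minus strand) lies 42.7 kb from Il17a and encodes a related cytokine. It was nearly absent from the libraries. The control Trdc-positive gate held 0 UMIs, which allows up to 6.15 CPM, and the cKO gate held 3 UMIs in 3 cells (1.12 CPM). Over all cells, 2 UMIs were counted in control and 15 in cKO, and 3 of the 15 cKO UMIs (an interval of 4.33% to 48.1%) came from Trdc-positive cells. No pattern across classes can be read from these counts, and Il17f enters no fold comparison below.

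Blk (ENSMUSG00000014453, chr14:63372836-63417037, minus strand) encodes a Src family kinase best known from B cells. It was read at 98.3 CPM (72.5 to 130, 48 UMIs) in control and 136 CPM (123 to 151, 364 UMIs) in cKO Trdc-positive T cells. In the Trdc-negative gate 0 and 1 UMIs were counted, and in the NK gate 0 and 0. Outside lymphocytes the highest count was 9 UMIs in 5 control dendritic-like cells (5.57 CPM). Of 6 B or plasma cell markers, 1 in control (2 UMIs) and 2 in cKO (25 UMIs) were detected in the Trdc-positive gate, summing to 4.10 and 9.36 CPM, and Cd79a and Ms4a1 had 0 UMIs in both.

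Sox13 (ENSMUSG00000070643, chr1:133382303-133424377, minus strand) encodes an SRY-related factor of early gamma delta T cell development. It was low, at 8.19 CPM (4 UMIs in 3 cells) in control and 16.9 CPM (12.3 to 22.6, 45 UMIs in 33 cells) in cKO Trdc-positive T cells. Its highest levels were in epithelial-like cells, 17.6 CPM in control (322 UMIs) and 26.6 CPM in cKO (73 UMIs). Only 1.07% of control Sox13 UMIs and 17.8% of cKO Sox13 UMIs came from Trdc-positive T cells. In the Trdc-negative gate 0 and 4 UMIs were counted, and in the NK gate 8 and 5.

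Maf (ENSMUSG00000055435, chr8:115682942-115707794, minus strand) encodes c-MAF, which is required for the IL-17 fate of gamma delta T cells and is also used by macrophages. It was read at 553 CPM (489 to 623) in control and 778 CPM (745 to 813) in cKO Trdc-positive T cells, against 318 and 457 CPM in the Trdc-negative gate and 94.2 and 157 CPM in the NK gate. The gate was not its main source. Stromal fibroblast-like cells had 736 and 1189 CPM and macrophage or monocyte-like cells 652 and 986 CPM, and Trdc-positive T cells gave only 2.62% and 5.19% of its UMIs. Dendritic-like cells, at 6.80 and 5.00 CPM, and epithelial-like cells, at 11.5 and 6.56 CPM, were low.

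**Figure D1:**
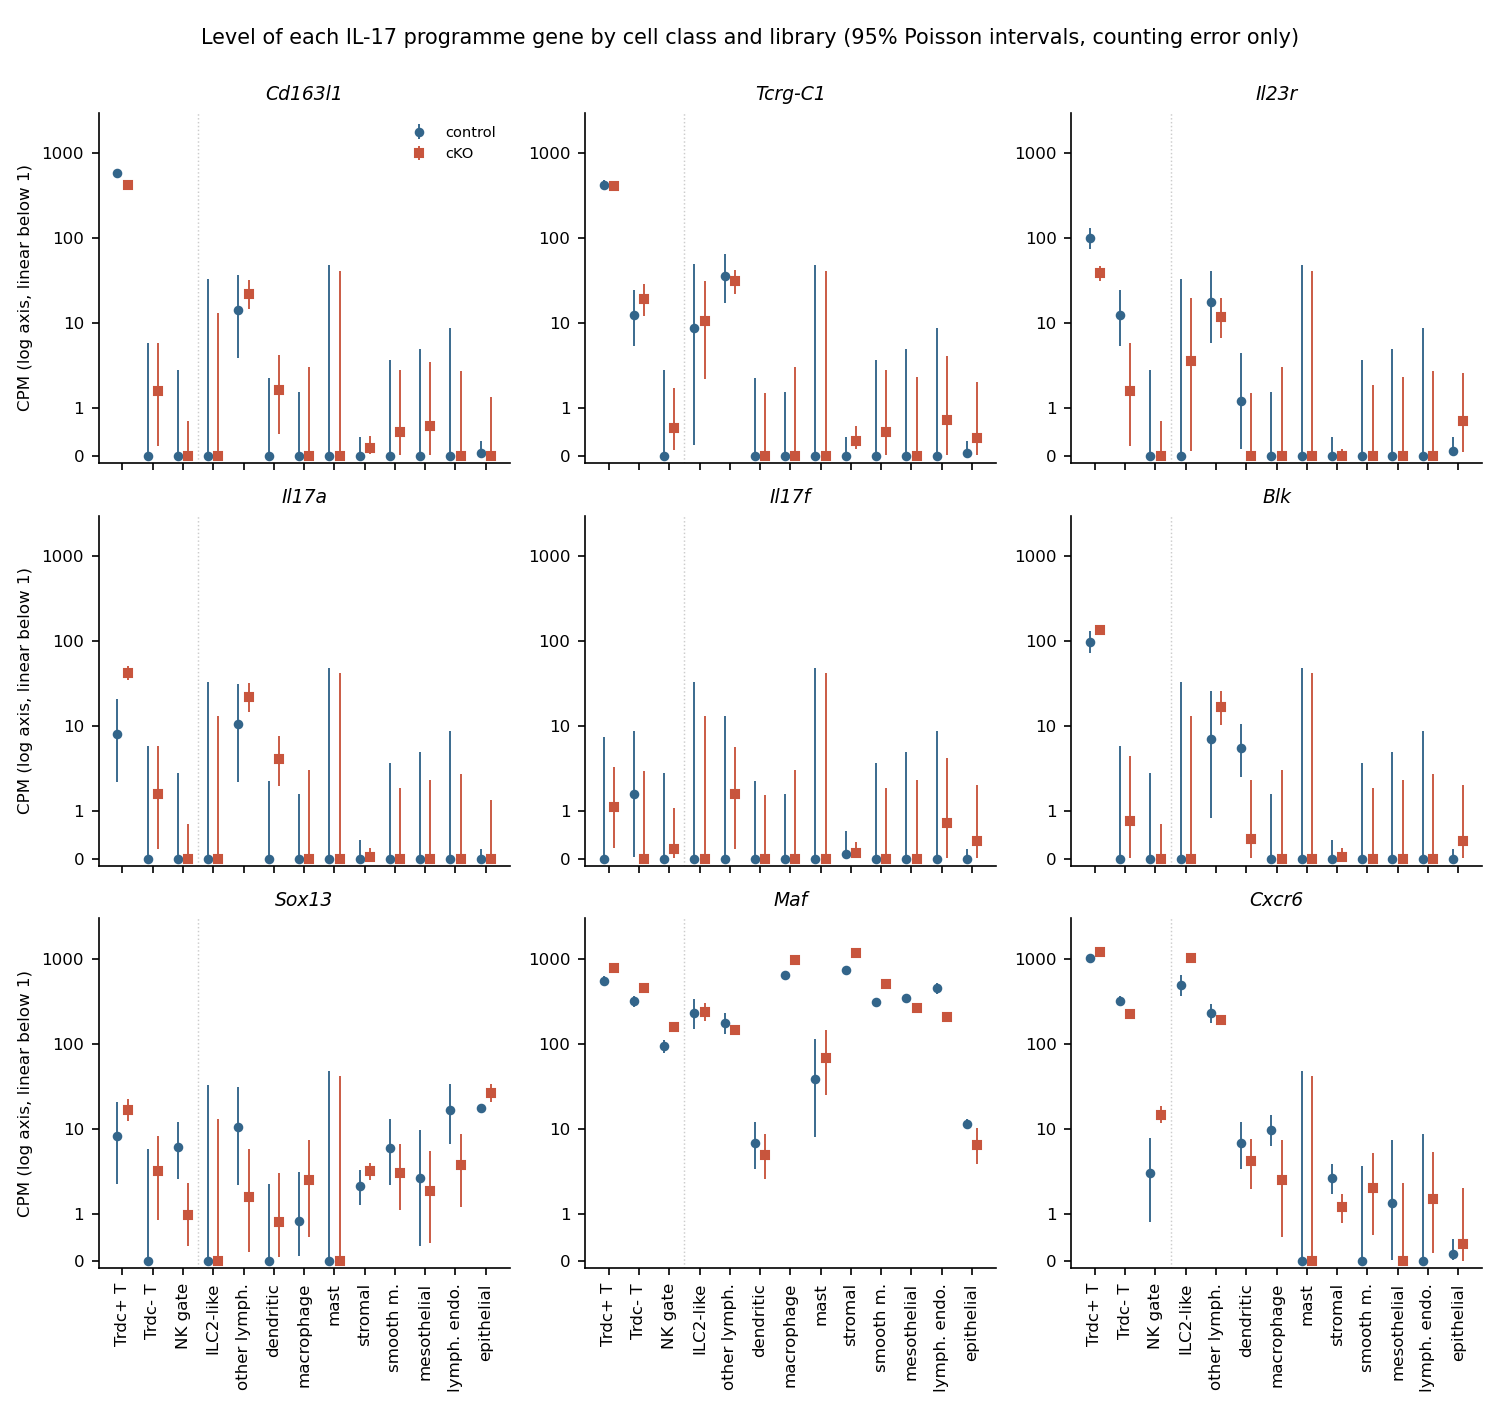
Level of each of the 9 members in 13 cell classes, in CPM on an axis that is logarithmic above 1 and linear below it; circles are the control library, squares the cKO library, and bars exact 95% Poisson intervals that cover counting error only. Cd163l1, Tcrg-C1, Il23r and Blk stand above every other class in Trdc-positive T cells of both libraries, whereas Maf is higher in stromal fibroblast-like cells (736 and 1189 CPM) and Sox13 in epithelial-like cells (17.6 and 26.6 CPM).

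The contrast that chose the members gave the following ratios, which are printed as a description. In control, 6 members had at least 10 UMIs over both T gates, and 5 of them were at least 2-fold higher in Trdc-positive than in Trdc-negative T cells, beside 11.4% of 9054 genes higher and 10.4% lower. Cd163l1 was at least 125-fold higher, taking 3 UMIs as the most a count of 0 allows. Tcrg-C1 was 33.5-fold higher (16.7 to 78.6), Blk at least 20.8-fold, Il23r 7.96-fold (3.74 to 19.5) and Cxcr6 3.24-fold (2.75 to 3.83). Maf, at 1.74-fold (1.44 to 2.10), was the member just outside the 2-fold limit. In cKO, 8 members had enough UMIs and 7 were at least 2-fold higher, beside 11.7% of 11724 genes higher and 8.08% lower. The ratios there were 260 for Cd163l1 (71.9 to 2151), 170 for Blk (30.2 to 6717), 26.1 for Il17a (7.06 to 218), 24.2 for Il23r (6.54 to 203), 21.6 for Tcrg-C1 (14.4 to 33.8), 5.35 for Cxcr6 (4.73 to 6.07) and 5.24 for Sox13 (1.91 to 20.1). Maf was again outside it, at 1.70 (1.55 to 1.87).

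Against the NK gate, 6 of 7 members in control and 8 of 8 in cKO were at least 2-fold higher in Trdc-positive T cells. Over all genes, 16.0% of 10408 were higher and 14.5% lower in control, and 14.5% of 12882 were higher and 10.7% lower in cKO. This contrast also belongs to the values that chose the members, so nothing is read from these counts. Cxcr6 was the receptor that separated least from the Trdc-negative gate in control. Against the NK gate it was 342-fold higher in control (133 to 1262) and 80.7-fold in cKO (64.2 to 103). Maf was 5.87-fold (4.73 to 7.32) and 4.95-fold (4.56 to 5.38) higher. Sox13 was the exception, at 1.35-fold (0.297 to 5.03) in control and 17.1-fold (6.80 to 55.1) in cKO. Epithelial markers moved with it: all 7 were detected in the NK gate, summing to 4098 CPM in control and 329 CPM in cKO, against 301 CPM (6 of 7, Cdh1 at 0) and 59.9 CPM (7 of 7) in the Trdc-positive gate. Of the NK-gate cells, 22 of 118 in control and 63 of 652 in cKO lay outside the lymphoid-like clusters. The part of such cells and of epithelial RNA in the ratios to this gate, Sox13 included, was not tested.

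The members were found together in the same cells. At least 3 of the 9 were detected in 71 of 83 control Trdc-positive T cells (85.5%, 76.1% to 92.3%) and in 318 of 353 cKO cells (90.1%, 86.5% to 93.0%). The Trdc-negative gate reached 7 of 93 (7.53%) and 10 of 140 (7.14%), and the NK gate 0 of 118 and 1 of 652. With each cell thinned to 1000 UMIs, which left out 1 Trdc-positive cell in each library, the shares were 43.9% (36 of 82) and 42.9% (151 of 352), against 2.17% and 0% in the Trdc-negative gate. The choice of members fixes the direction between gates, so the gate shares are a description. The small difference between the libraries did not keep its direction at equal depth. The median cell carried 4 members in control and 5 in cKO, the most was 7 and 8, and no cell carried all 9. Lymphoid-like cells outside the gates included 3 of 65 and 20 of 280 cells with at least 3 members.

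**Figure D2:**
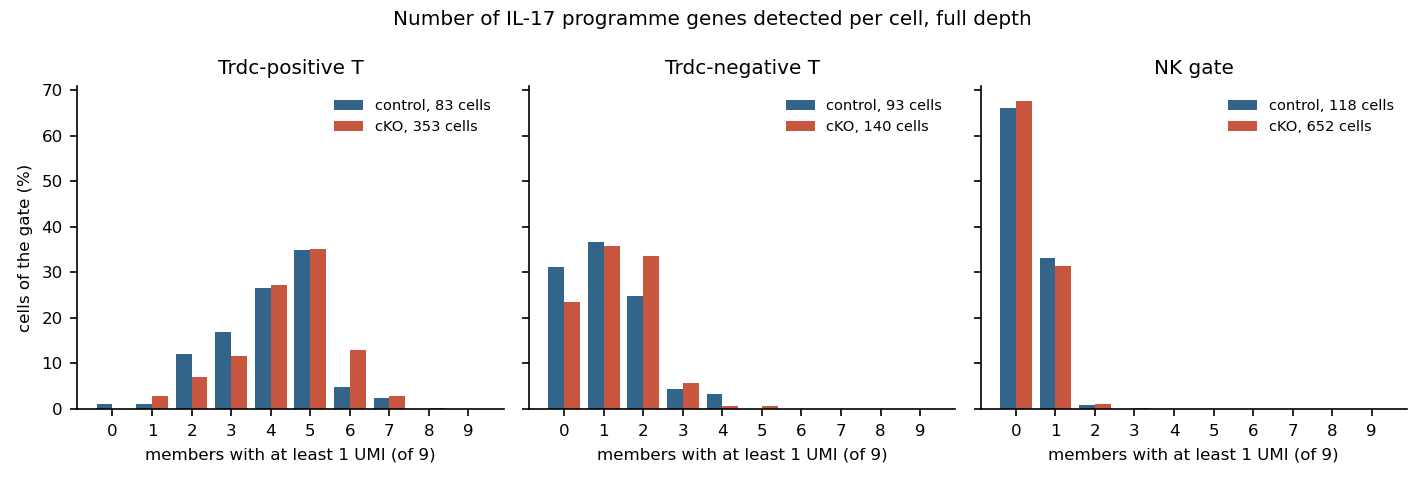
Percentage of the cells of each gate (vertical axis) by the number of the 9 members with at least 1 UMI (horizontal axis), at full depth, for the control (blue) and cKO (red) libraries. Trdc-positive T cells centre on 4 and 5 members, whereas Trdc-negative T cells and NK-gate cells centre on 0 and 1.

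The share of Trdc-positive T cells with a UMI was 79.5% in control and 81.3% in cKO for Cd163l1, 74.7% and 85.3% for Tcrg-C1, 94.0% and 97.5% for Cxcr6, and 74.7% and 80.2% for Maf. In the NK gate, Cd163l1 had a UMI in 0 of 118 and 0 of 652 cells, with exact upper bounds of 3.08% and 0.564% (2.54% and 0.460% by 3 counts of the total). For Maf they were 30.5% and 30.7%. Blk was detected in 33.7% and 49.0% of Trdc-positive cells, and in 9.76% and 18.2% after thinning to 1000 UMIs. Il23r was detected in 38.6% and 23.2%, and in 9.76% and 5.68% after thinning. Il17a was detected in 3.61% and 9.92%, and in 0% and 3.12% after thinning, so the control share at equal depth is below what 82 cells can show.

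Within the gate, Blk was more often detected in cells that also had Cd163l1: 37.9% against 17.6% of cells without it in control, and 54.7% against 24.2% in cKO. Tcrg-C1 showed the same order, 80.3% against 52.9% and 88.9% against 69.7%. Deeper cells detect more genes of every kind, and the part of depth in these pairs was not tested. Il23r and Il17a did not go together in cKO cells, since Il23r was found in 22.9% of cells with Il17a and 23.3% of cells without it.

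The 35 Trdc-positive cKO cells with an Il17a UMI could be set beside the 318 without one, at median depths of 4750 and 4566.5 UMIs. All of these cells come from 1 library, so the intervals cover counting error only. Cd163l1 was at 638 CPM (536 to 753) in cells with Il17a and 399 CPM (374 to 425) without. Blk was at 239 CPM (178 to 313) and 127 CPM, Tcrg-C1 at 546 CPM (452 to 653) and 405 CPM, and Maf at 1028 CPM (898 to 1172) and 756 CPM. Each of these members was higher in the Il17a cells with intervals that did not overlap. Il23r, at 55.1 CPM (28.5 to 96.2) against 37.5 CPM, and Sox13, at 22.9 against 16.3 CPM, were not separated from the other cells by counting error. Trdc itself was at 1808 against 1276 CPM, and the stromal chemokine gene Ccl2 at 82.6 against 1294 CPM. Of the 35 cells, 34 lay in the cluster led by Tcrg-C1, against 309 of all 353. The part of RNA from other cells was not tested, and no share over all genes was computed for this contrast. Maf was detected in 97.1% of cells with Il17a and 78.3% of those without. After thinning to 1000 UMIs the shares were 45.7% and 40.1% for Maf, 37.1% and 42.0% for Cd163l1, 31.4% and 16.7% for Blk, and 51.4% and 41.0% for Tcrg-C1.

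Other genes differed between these cells as well. Il2ra, the alpha chain of the IL-2 receptor and a mark of activated T cells, was at 491 CPM (402 to 593) with Il17a and 180 CPM (163 to 197) without. The costimulatory receptor Icos was at 964 CPM (838 to 1103) and 609 CPM (578 to 640). After thinning, Il2ra was detected in 34.3% of cells with Il17a and 21.1% of those without, and Icos in 57.1% and 53.6%. At full depth the shares for Icos were 88.6% and 91.2%. The IL-1 receptor gene Il1r1 was at 124 and 128 CPM. Of 16 type 1 and cytotoxic genes, 11 had 0 UMIs in the 35 cells with Il17a, among them Tbx21, Ifng, Eomes, Gzmb, Prf1, Cxcr3 and Nkg7, with 16, 6, 39, 70, 22, 65 and 35 UMIs in the 318 without. The other 5 were present: Il2rb at 1092 CPM with Il17a and 873 CPM without, Stat4 at 82.6 and 95.8 CPM, and Ccl5, Klrd1 and Cd27 with 1 UMI each in the cells with Il17a. The 70 UMIs of Gzmb lay in 10 of the 318 cells and the 65 of Cxcr3 in 37 of them, so a count of 0 in 35 cells does not show that these genes are absent. Il17f was found in 1 cell with Il17a. In control, only 3 cells carried Il17a, too few for the same comparison.

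**Figure D3:**
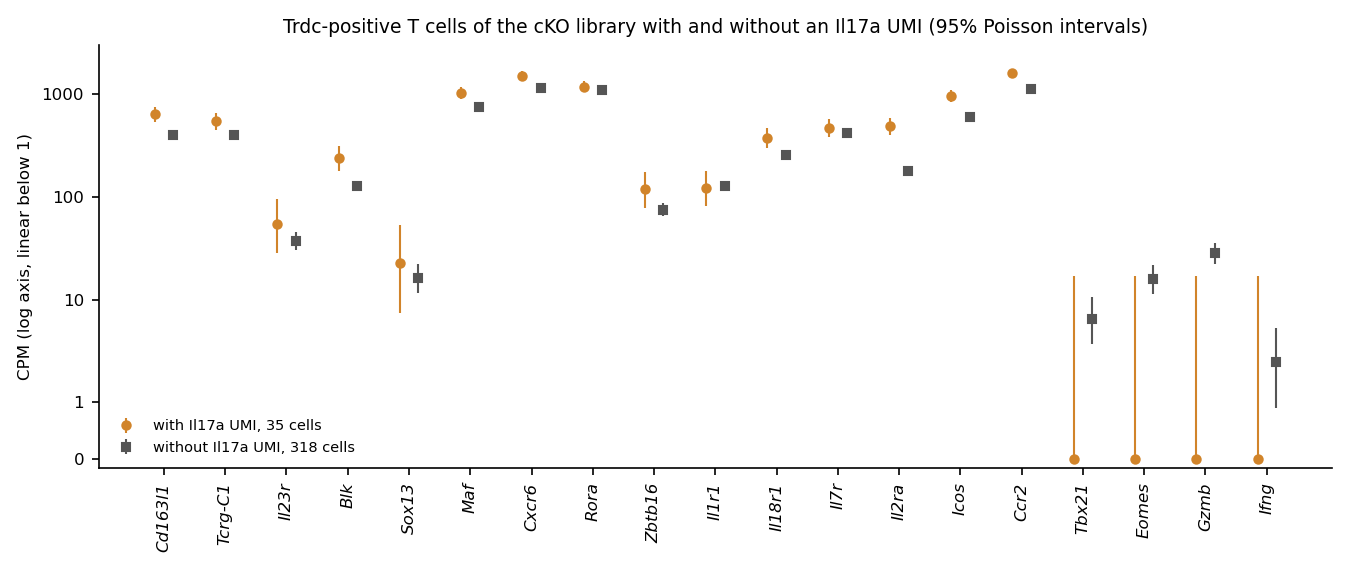
Levels of 7 members and 12 other genes, in CPM on an axis logarithmic above 1 and linear below it, in the Trdc-positive T cells of the cKO library with (circles, 35 cells) and without (squares, 318 cells) an Il17a UMI; bars are exact 95% Poisson intervals. Il2ra stands at 491 against 180 CPM, while Eomes, Gzmb, Ifng and Tbx21 are at 0 in the cells with Il17a.

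Between genotypes, 2 of the 8 members with enough UMIs were at least 2-fold higher in cKO than in control Trdc-positive T cells (Il17a and Sox13), 1 was at least 2-fold lower (Il23r) and 5 were neither. Over all 11242 genes with at least 10 UMIs, 11.8% were at least 2-fold higher and 6.09% lower. Counts of 2 and 1 among 8 genes are too few to be set apart from these shares. The median log2 ratio of the members, with 0.5 UMI added to each count, was 0.33, and that of all genes 0.04. With 1 library in each group no test between genotypes was possible.

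Il17a was 5.12-fold higher in cKO (1.94 to 19.1), from 4 UMIs in 3 cells against 112 in 35 cells. That interval takes UMIs as independent and leaves out their uneven spread among cells. Il23r was 2.58-fold lower (1.80 to 3.65). After thinning to 1000 UMIs the log2 ratio of Il23r went from -1.37 to -0.76, and with the mean of the cells' CPM it was -0.996, both short of the 2-fold limit. Sox13 was 2.06-fold higher (0.750 to 7.88), with an interval that includes no difference, and 4 other settings put it below 2-fold. In summed UMIs the ratios of Il17a and Il23r lay in opposite directions. This difference was not tested, and thinned control cells held no Il17a UMI.

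The remaining 5 members differed by less than 2-fold. Cd163l1 stood at a ratio of 0.709 (0.622 to 0.810), Tcrg-C1 at 0.986 (0.849 to 1.15), Blk at 1.39 (1.02 to 1.92), Cxcr6 at 1.15 (1.05 to 1.26) and Maf at 1.41 (1.24 to 1.60). Blk reached a log2 ratio of 0.96 after thinning, and was then past the 2-fold limit without the 0.5 UMI added. The Maf ratio did not hold: its log2 value of 0.49 became -0.02 when only cells of the lymphoid-like clusters were used, -0.05 after thinning and -0.04 with the mean of the cells' CPM. Stromal fibroblast markers moved with it, since the 7 of 7 detected markers summed to 2395 CPM in control and 3874 CPM in cKO Trdc-positive T cells, against 12905 and 13172 CPM in stromal fibroblast-like cells and 1704 and 4103 CPM in cell-free barcodes. The part of stromal RNA in the Maf ratio was not tested. In cKO, 1 cell gave 180 Maf UMIs, 8.66% of the total.

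**Figure D4:**
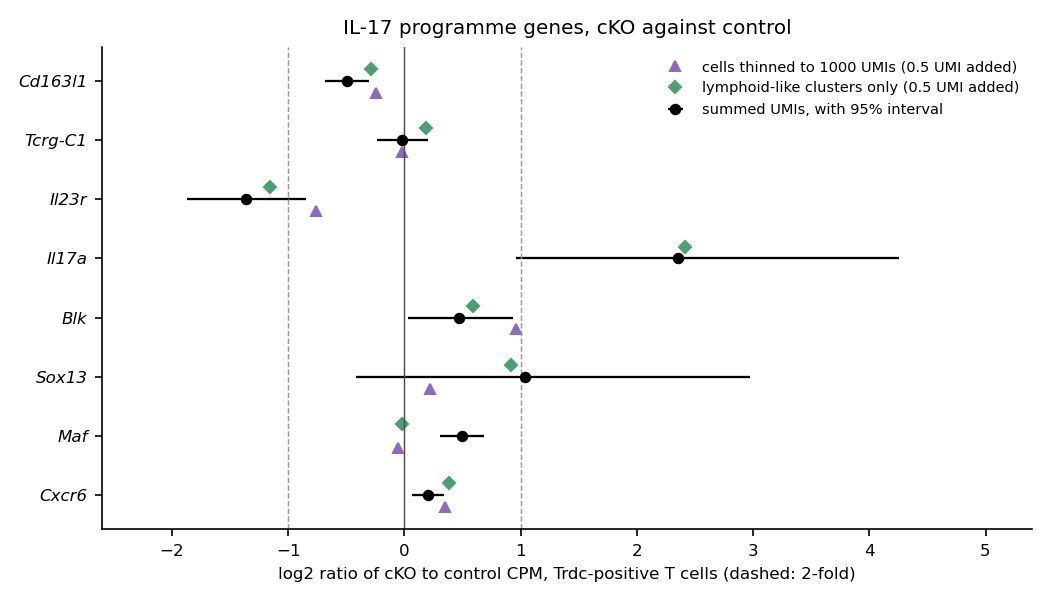
Log2 ratio of cKO to control CPM in Trdc-positive T cells for the 8 members that could be compared; black points are summed UMIs with their 95% intervals, triangles cells thinned to 1000 UMIs, diamonds cells of the lymphoid-like clusters, and dashed lines mark 2-fold. Il17a lies to the right of the 2-fold line and Il23r to the left, and Maf moves from 0.49 to -0.02 in the lymphoid-like clusters; the thinned value of Il17a is not drawn because thinned control cells held no Il17a UMI.

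Markers of other cell types in the Trdc-positive gate are given beside these ratios, and their part in them was not tested. Of 7 epithelial markers, 6 in control (Cdh1 at 0) and 7 in cKO were detected, summing to 301 and 59.9 CPM. Of 8 macrophage markers, 8 and 7 (Fcgr1 at 0) summed to 299 and 129 CPM, and of 8 dendritic markers 3 and 8 summed to 170.0 and 426 CPM. Of 7 smooth muscle markers, 4 and 7 summed to 92.2 and 361 CPM, and of 7 blood endothelial markers 2 and 7 summed to 26.6 and 154 CPM. Mesothelial markers were lower in cKO, as the epithelial and macrophage markers were, with 6 and 5 of 6 summing to 172 and 31.5 CPM. The chemokine gene Ccl2, abundant in stroma, had 43 UMIs in 3 control cells and 3190 UMIs in 33 cKO cells of the gate, with 1128 in 1 cell.

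The same contrast in other cells gives a background for the members shared with them. Maf was higher in cKO in the Trdc-negative gate, 1.44-fold (1.22 to 1.70), in the NK gate, 1.67-fold, and in stromal fibroblast-like cells, 1.62-fold (1.57 to 1.66). The summed UMIs of the Trdc-positive gate gave the same direction, but that ratio did not hold in other settings, as given above. Cxcr6 was lower in the cKO Trdc-negative gate, at a ratio of 0.695 (0.578 to 0.837), and higher in the NK gate, at 4.87 (1.83 to 18.4) from 4 control UMIs. Il23r was lower in the Trdc-negative gate as well, at 0.128 (0.0132 to 0.639) from 8 and 2 UMIs. Differences between these ratios and those of the Trdc-positive gate were not tested.

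The transcription factors and receptors of IL-17-secreting cells, from lists drawn up with earlier results of these data known, were then examined in the Trdc-positive gate. Of 11 transcription factors, 5 in control and 5 in cKO were at least 2-fold higher than in the Trdc-negative gate, and 1, Gata3, was lower in both. Over all genes of this contrast, 11.4% were higher and 10.4% lower in control, and 11.7% and 8.08% in cKO. Rora, a nuclear receptor, was at 1067 against 528 CPM in control (2.02-fold, 1.76 to 2.33) and 1116 against 495 CPM in cKO (2.25-fold, 2.07 to 2.46). Zbtb16, the innate-like T cell factor PLZF, was at 133 against 34.7 CPM and 79.0 against 37.8 CPM. Gata3, the factor of type 2 lymphocytes, was at 28.7 against 156 CPM in control and 46.4 against 156 CPM in cKO. Markers of group 2 innate lymphoid cells, Gata3 among them, moved with it. They summed to 65.5 against 719 CPM in control and 78.7 against 429 CPM in cKO, and the part of such cells was not tested.

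Of the 13 receptor genes, 12 had enough UMIs, and 5 in control and 6 in cKO were at least 2-fold higher in the Trdc-positive than in the Trdc-negative gate, with none lower, beside 11.4% and 11.7% of all genes higher. The chemokine receptor Ccr2 was at 1374 against 156 CPM in control and 1175 against 141 CPM in cKO. The leukotriene B4 receptor Ltb4r1 was at 79.9 against 9.46 CPM and 86.2 against 15.3 CPM, and Ramp1, a subunit of the receptor for the neuropeptide CGRP, at 100.4 against 20.5 CPM and 124 against 24.9 CPM. Il1r1 was at 109 against 37.8 CPM and 128 against 52.3 CPM. Ccr6, often used as a surface mark of IL-17-secreting gamma delta T cells, had 0 UMIs in the Trdc-positive gate of both libraries.

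Genes of the gamma delta receptor and of the other fates were also read in the 2 T gates. Trdv4, a delta chain variable segment, had 231 UMIs in control and 924 in cKO Trdc-positive cells, against 0 and 6 in the Trdc-negative gate. Tcrg-V6, which encodes a gamma chain variable segment, had 8 and 57 UMIs against 0 and 1. Of 15 type 1 and cytotoxic genes with enough UMIs, 12 in control and 9 in cKO were at least 2-fold lower in the Trdc-positive gate, and 1, the granzyme gene Gzmb, was higher in cKO. Over all genes, 10.4% were lower in control and 8.08% in cKO. Of the alpha beta T cell genes, 6 of 8 in control and 7 of 9 in cKO were lower, beside those same shares of all genes, and Trbc1 and Trbc2 were neither. Of 4 cytokine genes outside the members with enough UMIs in control, Tnf and Ltb were higher in the Trdc-positive gate and Lif was lower. In cKO, 3 of 5 were higher, Tnf, Il17d and Ltb, and 0 lower. Over all genes, 11.4% were higher in control and 11.7% in cKO. Ltb was at 961 against 314 CPM in control and 491 against 84.4 CPM in cKO, and Tnf at 28.7 against 12.6 CPM and 28.1 against 4.82 CPM. Il22 had 0 UMIs in control and 1 in cKO Trdc-positive cells, and Il21 had 0 in both.

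Between genotypes, some of the lists were read in Trdc-positive T cells beside the 11.8% of all genes that were at least 2-fold higher in cKO and the 6.09% lower. Of 11 transcription factors, 2 were higher in cKO, Irf4 at 2.06-fold (1.23 to 3.68) and Ahr at 2.74-fold (1.57 to 5.24), and Rora was at a ratio of 1.05 (0.952 to 1.15). Of 12 receptors, Il12rb1, whose product pairs with IL-23R in the IL-23 receptor, was lower, at 53.3 CPM in control and 24.7 CPM in cKO (ratio 0.464, 0.291 to 0.762). Il12rb1 was also at least 2-fold lower in cKO in the Trdc-negative gate (ratio 0.139, 0.0249 to 0.527), in the NK gate (0.223, 0.0941 to 0.519) and, from 7 and 9 UMIs, in stromal fibroblast-like cells (0.486, 0.161 to 1.54). Il7r, at 799 and 421 CPM, stood just inside the 2-fold limit with a ratio of 0.527 (0.470 to 0.593). Of 7 genes of the gamma delta list, 0 were higher and 1, 5830411N06Rik, was lower (log2 ratio -5.74, with 0.5 UMI added). It was also lower in the Trdc-negative gate (-2.27). Of 5 cytokine genes outside the members, Lif was higher (3.08) and Areg lower (-1.85). Of 13 type 1 and cytotoxic genes, 6 were higher in cKO and 1, Cxcr3, was lower, at 67.6 and 24.3 CPM. The largest count among the 6 was Klrd1, with 0 UMIs in control and 81 in cKO (at least 4.94-fold). These are genes of NK cells, and the NK gate held 118 control and 652 cKO cells. The part of NK cell RNA in the difference was not tested.

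The ligands that act on these cells were read by class. Il12b, the subunit shared by IL-12 and IL-23, was read in dendritic-like cells at 14.2 CPM in control (23 UMIs in 4 cells) and 116 CPM in cKO (277 UMIs in 11 cells). Il23a, the subunit specific to IL-23, was highest in epithelial-like cells, at 9.57 CPM (175 UMIs in 105 cells) in control and 5.47 CPM in cKO. The 2 subunits therefore had their highest levels in different classes. Il1b was read at 2588 and 1174 CPM in dendritic-like cells and at 828 and 2686 CPM in macrophage or monocyte-like cells. Cxcl16, the ligand of Cxcr6, was highest in macrophage or monocyte-like cells (695 and 894 CPM) and dendritic-like cells (621 and 643 CPM). It was at 180 and 131 CPM in the Trdc-positive gate, where 7 of 83 and 32 of 353 cells carried it. Tgfb1, a cytokine that takes part in the development of IL-17 producing T cells, was at 215 and 321 CPM in the Trdc-positive gate.

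On the receiving side, Il17ra was read at 124 and 114 CPM in stromal fibroblast-like cells and at 111 and 101 CPM in Trdc-positive T cells. Il17rc was at 1.90 CPM in control and 4.56 CPM in cKO stromal fibroblast-like cells (2.39-fold higher, 1.45 to 4.18). Il17re, which encodes the receptor for IL-17C, was highest in the Trdc-positive gate itself, at 156 and 139 CPM, against 17.3 and 24.9 CPM in the Trdc-negative gate. Among 11 genes known to respond to IL-17 and tested in stromal fibroblast-like cells, 2 were at least 2-fold higher in cKO and 2 lower, beside 5.82% of 14665 genes higher and 9.54% lower. Il6 was at 177 and 624 CPM (3.52-fold higher, 3.35 to 3.70) and Steap4 at 52.8 and 129 CPM (2.44-fold higher, 2.22 to 2.68). Lcn2 was at 8.57 and 1.84 CPM and S100a8 at 2.64 and 0.440 CPM. The median log2 ratio of the 11 was 0.49, beside -0.07 over all genes tested, and the list was not tested. The clusters of this class were unevenly shared between the 2 libraries: the cluster led by C1qtnf3 and Inmt held 396 control and 105 cKO cells, and the one led by Gpr83 and Cilp 79 and 739. The cluster led by Cyp26b1 and Prrx2 held 18 and 296 cells, and the one led by Il6 and Cxcl1 held 93 and 227. The part of this makeup in the stromal values was not tested.

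Genes whose profile was most like the mean profile of the members were sought over 26 profiles, 1 for each class with at least 30 cells in a library, by Pearson r of log2(CPM + 1) among 14906 genes. The profiles of a library share its depth and cell-free RNA, and r is a description. The 10 highest were Cdh10 (0.94), B4galnt4 (0.93), Olfr60 (0.93), Olfr1259 (0.91), Actn2 (0.90), Tns4 (0.90), Tcrg-C2 (0.89), Tcrg-C4 (0.89), Lingo4 (0.88) and Aqp3 (0.88). Aqp3, a water and glycerol channel, was the most abundant, at 195 CPM in control and 306 CPM in cKO Trdc-positive T cells, against 29.9 and 9.65 CPM in the Trdc-negative gate. Cdh10, a cadherin, was at 26.6 and 61.4 CPM against 4.73 and 2.41 CPM. Olfr60, named as an olfactory receptor, was at 115 and 71.9 CPM against 20.5 and 3.22 CPM. Of the members themselves, Tcrg-C1 had the highest r with the mean (0.96), and Il17f (0.51), Sox13 (0.42) and Maf (0.32) the lowest.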

How the data were processed

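Single-cell 3′ RNA-seq libraries of 1 control and 1 cKO pool were analysed from the deposited count matrices, which hold whole UMI counts per gene and barcode. Per the file headers they were written by Cell Ranger 4, whereas the submitters' processing notes give Cell Ranger 6.1.1 and build mm10. No normalised values were used. Barcodes needed at least 500 genes and at most 20% mitochondrial UMIs, and cells with a doublet score over 0.25 from simulated doublets were removed (42, or 1.15%, in control and 63, or 1.27%, in cKO). Cells were scaled to 10000 counts, and 2000 variable genes, 30 principal components and 20 neighbours gave 22 Leiden clusters at resolution 1, of which 2 stayed unnamed. The way marker scores and ties named clusters was set after seeing the data. The class names rest on these rebuilt clusters.

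UMIs were summed over the cells of a gate and library and given as CPM, with exact Poisson, Clopper-Pearson or conditional binomial intervals (95%). A gene was compared with at least 10 UMIs over both groups, and a fold of 2 was marked. A count of 0 was set to 3 counts over the summed gate for a lower bound. No p-value was computed, since there is 1 library per group. Interval coverage and recovery of known folds were tested on simulated data. The 730412 control and 812108 cKO barcodes of 1 to 100 UMIs gave the profile of cell-free RNA. Symbols were matched to GENCODE positions for 32235 of 32285 genes (99.8%).

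The members, the gene lists and the tests were chosen with earlier results of these data known. All 9 members were named. From each list, genes with at least 10 UMIs in the Trdc-positive gates could be named, up to 4 with the highest CPM and up to 4 with the largest ratio either way, and the 10 genes most alike in profile. Other list genes named, such as Ccr6, Il22 and those at 0 in cells with Il17a, were chosen after their values were seen. Tools were Python 3.11.15, numpy 2.4.6, scipy 1.17.1, pandas 2.3.3, scanpy 1.11.5, leidenalg 0.10.2 and matplotlib 3.10.9.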

Additional observations from a re-analysis of the deposited data

Results flagged for a closer look

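The ratios of Sox13 between genotypes lay in opposite directions in the Trdc-positive T gate and the NK gate. It was at 8.19 CPM (4 UMIs) in control and 16.9 CPM (45 UMIs) in cKO Trdc-positive T cells, and at 6.08 CPM (8 UMIs) and 0.987 CPM (5 UMIs) in NK-gate cells. The Trdc-positive ratio of cKO to control had an interval of 0.750 to 7.88, which includes no difference. Epithelial markers moved with Sox13 in the NK gate, at 4098 CPM in control and 329 CPM in cKO, against 4063 and 527 CPM in cell-free barcodes, and their part in the result was not tested. The log2 ratios differed by 3.66, from few UMIs, and this difference was not tested.

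RNA of the members was also found in barcodes that hold no cell. All 9 had UMIs there in cKO, and Il23r, Il17a and Il17f had 0 in control. For 4 members the cKO level was above the control level with intervals that did not overlap. Maf was read at 446 CPM in cKO and 140 CPM in control, and Cxcr6 at 56.5 and 13.2 CPM. Cd163l1 was read at 26.3 and 5.43 CPM, and Tcrg-C1 at 24.5 and 5.04 CPM. Il17a had 0 UMIs in control and 7 in cKO, and Blk had 2 and 9. Sox13 was lower in cKO, with 25 and 8 UMIs.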

How the results depend on the processing

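No paired analysis was possible because each group has 1 library, and for the same reason no replicate could be left out. Filters on genes, mitochondrial UMIs and doublets, thinning to 1000 UMIs, the mean of the cells' CPM, subtraction of cell-free RNA and other definitions of the gates were tried. Confining the gates to lymphoid-like clusters was chosen after seeing the data. All 84 values obtained for the counts of members, their median log2 ratio and the Trdc-positive shares stayed within the limits set for a change. Those limits were wide, so the ranges given next did not count as a change. The members at least 2-fold higher than in the Trdc-negative gate numbered 4 to 6 in control and 7 in cKO throughout, and than in the NK gate 4 to 7 and 8. The Trdc-positive share of T cells ranged from 45.0% to 50.6% in control and from 70.6% to 73.8% in cKO, and the median log2 ratio of cKO to control from 0.10 to 0.39. Of 96 member ratios of cKO to control none changed sign while past 2-fold, 88 kept their side of the 2-fold limit and 8 did not. These 8 were Il23r (thinned, -0.76, and mean CPM, -0.996), Il17a (thinned, for want of UMIs), Blk (thinned) and Sox13 with doublets kept, thinning, Trdc from 2 UMIs or Cd3e alone (0.22 to 0.84). Of 167 ratios of Trdc-positive to Trdc-negative cells, 164 kept their side, and the other 3 put Maf in control past 2-fold. The cause was not tested. Few or no UMIs of Il17a, Il17f and Sox13 were counted in the 83 control cells.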
